A study of Mus musculus with 32 samples.

Results

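The genes *Ccr1*, *Ccr2*, *Ccr3*, *Ccr7*, *Ccrl2*, *Cx3cr1*, *Cxcr4* and *Ackr3* encode chemokine receptors and were taken as a group by name. The rule uses no measured value, although results of these data were known when the group was proposed. All 8 were found among the 54281 gene identifiers of the count table by their Ensembl identifier, and 7 of them were among the 15257 genes with enough counts to be tested. *Ackr3* did not reach the filter on low counts.

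Chemokine receptors are membrane receptors, most of them coupled to Gi proteins, that read gradients of secreted chemokines and steer the migration of leukocytes. On monocytes and macrophages CCR1, CCR2 and CX3CR1 act in recruitment and positioning, and their levels change as monocytes mature. CXCR4 holds cells in the bone marrow, CCR3 is best known from eosinophils and CCR7 from dendritic cells on their way to lymph nodes. CCRL2 and ACKR3 are atypical receptors, which bind ligands without coupling to G proteins.

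The libraries were made from bone marrow-derived macrophages (BMDMs), cells grown from mouse bone marrow in medium conditioned by L929 cells, a source of macrophage colony-stimulating factor. The mice were *Trex1* FL/FL or *Trex1* WT/FL, and all of them carried R26 CreERT2, a Cre recombinase expressed from the broadly active Rosa26 locus, so that recombination was not limited to a cell type. 4-hydroxytamoxifen (4-OHT) activates this Cre, which removes the loxP-flanked *Trex1* from both alleles of FL/FL cells and from the floxed allele of WT/FL cells, which keep a wild type allele. TREX1 is a DNA exonuclease whose loss starts a type I interferon (IFN) response. For both genotypes, cells that had received 4-OHT at 2 µg/ml during 22 h and cells that had not were collected 1, 2, 3 or 4 days later, and 2 libraries were made for each of the 16 combinations. The labels do not say whether the 2 libraries of a group came from separate animals or cultures, so p-values measure only the spread between these libraries, which may be technical. They give no replicate number either, and replicates 1 and 2 stand here for the order of listing within a group. The same number in different groups need not mean the same animal or culture.

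Values are estimated read counts of each gene, with totals of 35120505 to 63760884 per library (median 44841991). They are given here scaled to library size with TMM factors (CPM). *Trex1* had 0 counts in 6 of the 8 libraries of 4-OHT-treated FL/FL cells and 9 and 14 counts in the others, against 758 to 3622 counts in 4-OHT-treated WT/FL cells, which fits the labels. The summed level of 7 macrophage markers was 15024 to 47900 CPM, and the cells were macrophages by these genes. Markers of T and B cells did not exceed 0.817 CPM in sum, those of dendritic cells 2.50 CPM and those of neutrophils 13.9 CPM. In bulk RNA, fewer cells with a receptor and less receptor RNA per cell cannot be told apart.

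Of the 8 genes, 5 lie on chromosome 9, which also holds *Trex1*. In GRCm39 *Ccrl2* spans chr9:110883554-110886591 on the minus strand, 1.99 Mb from *Trex1*, and *Cx3cr1* spans chr9:119877749-119898945 on the minus strand, at a distance of 11.0 Mb. *Ccr1* (chr9:123762161-123768734, minus strand), *Ccr3* (chr9:123822009-123831726, plus strand) and *Ccr2* (chr9:123901982-123913594, plus strand) form a cluster at 14.9 to 15.0 Mb. *Cxcr4* (chr1:128515936-128520044, minus strand) and *Ackr3* (chr1:90131689-90144473, plus strand) are on chromosome 1, and *Ccr7* (chr11:99035022-99045911, minus strand) is on chromosome 11. These are whole genes, exons and introns included, as GENCODE gives them.

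RefSeq promoters of 300 bases, from 250 before to 50 after a start site in GRCm38.p6, were at hand for 7 of the 8 genes. The promoters of *Ccr3*, *Ccrl2* and *Cx3cr1* are shown because these 3 genes differed between the 4-OHT-treated genotypes on more than 1 day. They lie at chr9:124021721-124022020 (plus strand), chr9:111057469-111057768 (minus strand, first of 3 listed start sites) and chr9:120068247-120068546 (minus strand). Capitals mark matches to the motifs searched, and a stretch without capitals held none of them.
Ccr3: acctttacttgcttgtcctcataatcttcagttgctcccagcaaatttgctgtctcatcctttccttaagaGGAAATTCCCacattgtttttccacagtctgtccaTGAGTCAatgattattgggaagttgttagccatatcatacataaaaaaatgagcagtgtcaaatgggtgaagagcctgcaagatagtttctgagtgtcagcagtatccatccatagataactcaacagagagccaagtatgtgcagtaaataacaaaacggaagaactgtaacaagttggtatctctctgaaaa
Ccrl2: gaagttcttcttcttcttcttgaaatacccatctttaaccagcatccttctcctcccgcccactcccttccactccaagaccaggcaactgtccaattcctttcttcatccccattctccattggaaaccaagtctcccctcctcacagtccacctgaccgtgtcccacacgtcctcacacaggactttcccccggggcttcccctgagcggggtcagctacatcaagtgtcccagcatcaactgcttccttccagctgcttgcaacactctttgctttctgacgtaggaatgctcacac
Cx3cr1: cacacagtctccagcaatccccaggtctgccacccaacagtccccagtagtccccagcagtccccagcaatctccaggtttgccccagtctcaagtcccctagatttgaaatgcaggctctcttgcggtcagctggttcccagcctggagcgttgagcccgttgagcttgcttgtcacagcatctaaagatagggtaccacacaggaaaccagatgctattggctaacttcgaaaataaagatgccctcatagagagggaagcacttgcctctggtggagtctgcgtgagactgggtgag

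The motifs were searched on both strands as GAAA repeated after 2 unspecified bases (core of the IFN-stimulated response element), TTCNNNGAA (core of the gamma-activated site), GGG followed by 2 unspecified bases and TTTCC (core of the kappaB site) and TGANTCA (AP-1). Among the 9 promoters of 7 receptor genes, only that of *Ccr3* held a match, a kappaB core 179 bases and an AP-1 site 144 bases before the start. Over all 32851 RefSeq promoters of the same length, 1.63% held the kappaB core, 7.81% the AP-1 site, 3.44% the response element core and 8.3% the gamma-activated core. A match is a description of letters, not evidence of binding.

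To compare levels between the receptors, CPM were divided by the exon length of each gene. On day 1 *Cx3cr1* had the highest median over the 8 libraries of the day (68.2 CPM per kb), followed by *Ccr1* (25.1), *Ccr2* (11.6) and *Cxcr4* (8.17). *Ccr3* (2.20 CPM per kb) and *Ccrl2* (0.392) were low, and *Ccr7* stood at 0.121. The ranges of the first 4 did not overlap, apart from that of *Cxcr4*, which reached 8.97 CPM per kb where *Ccr2* began at 8.54.

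By day 4 the order had changed. *Cxcr4* was highest with a median of 34.2 CPM per kb, followed by *Ccr3* (5.80), *Cx3cr1* (5.52), *Ccr2* (4.76), *Ccrl2* (3.58) and *Ccr1* (1.31). The ranges of *Ccr3*, *Cx3cr1*, *Ccr2* and *Ccrl2* overlapped on this day, so that their order is not fixed by these libraries. *Ccr7* remained the lowest tested receptor on all 4 days.

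**Figure D1:**
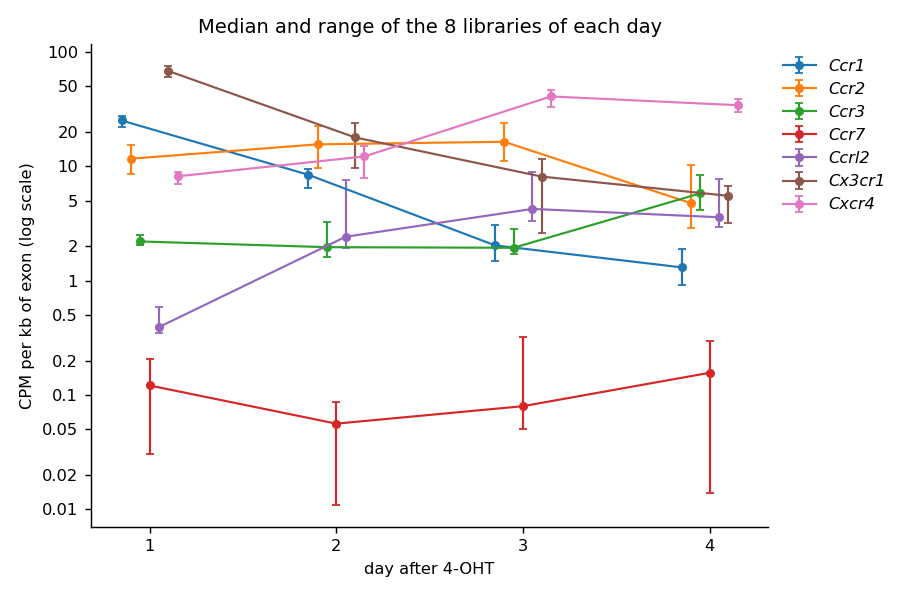
Level of the 7 tested receptors per kb of exon (CPM per kb, log scale) against the day after 4-OHT. Points are medians and bars the full range over the 8 libraries of a day, and *Cx3cr1* falls from 68.2 to 5.52 while *Cxcr4* rises from 8.17 to 34.2 CPM per kb.

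*Ackr3*, a scavenger of CXCL12 and CXCL11, had 0 counts in 30 of the 32 libraries and a single count in the other 2, both from untreated FL/FL cells. A count of 0 allows a level of up to 3 counts, which is 0.0482 to 0.0908 CPM in these libraries and covers counting error only. *Ccr7*, the receptor of CCL19 and CCL21, had 1 to 31 counts per library, or at most 0.641 CPM. It reached the filter on low counts and did not pass in any of the 35 contrasts. Its largest fitted genotype difference under 4-OHT, on day 1, came from 3 and 4 counts in FL/FL cells against 14 and 17 counts in WT/FL cells and had an adjusted p of 1. Differences in *Ccr7* were not detectable at this depth.

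For the other receptors the day of harvest was compared first. The quasi-likelihood test of edgeR was applied to all 32 libraries in 1 model of 16 group means, and a gene is said to have passed, or to be a call, where its Benjamini-Hochberg adjusted p over all 15257 genes was under 0.01. It is said to have passed both thresholds where the log2 fold change was in addition above 1.5 in size. Each adjusted p given here comes from this test unless another fit or tool is named beside it. Shares of all genes that passed also come from this test and were not counted for another fit or tool. Between days 1 and 2, 4 of the 7 tested receptors passed in each of the 4 combinations of genotype and treatment, where 38.4%, 38.6%, 38.5% and 41.1% of all genes did in untreated WT/FL, 4-OHT-treated WT/FL, untreated FL/FL and 4-OHT-treated FL/FL cells. They were *Ccr1*, *Cx3cr1*, *Ccrl2* and *Cxcr4*, with *Ccr3* in place of *Cxcr4* in 4-OHT-treated FL/FL cells. Between days 2 and 3, 4, 4, 4 and 3 receptors passed in the same order (34.9%, 36.3%, 36.9% and 33.1% of all genes). Between days 3 and 4 the counts were 3, 2, 3 and 1 (12.3%, 12.2%, 13.6% and 9.33% of all genes).

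*Cx3cr1*, the receptor of fractalkine, fell most in absolute terms. Its 8 libraries of day 1 ranged from 280 to 351 CPM (median 318), those of day 2 from 44.6 to 111 CPM (median 83.4) and those of day 3 from 12.1 to 53.6 CPM (median 37.9). The ranges of days 1 and 2 did not overlap. From day 1 to day 2 its log2 fold change was −1.84 and −1.62 in untreated WT/FL and FL/FL cells and −2.15 and −2.68 in 4-OHT-treated WT/FL and FL/FL cells, and it passed in all 4. It passed again from day 2 to day 3 in all 4, with log2 fold changes of −1.05 to −1.85, and in a fit of only the groups compared it did not pass in WT/FL cells without (adjusted p = 0.0286) or with 4-OHT (0.0147). From day 3 to day 4 it fell further in untreated WT/FL cells (−0.65, adjusted p = 0.00733) and untreated FL/FL cells (−0.74, adjusted p = 0.00268). The first of these calls was lost without replicate 1 of day 3 (adjusted p = 0.136) or replicate 1 (0.0852) or 2 (0.0298) of day 4, and the second whichever of its 4 libraries was left out (0.0137 to 0.0325). In 4-OHT-treated FL/FL cells the log2 fold change was 0.55 (adjusted p = 0.0468), which passed with DESeq2 (0.00841).

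*Ccr1*, a receptor of CCL3 and CCL5, fell alongside it. Its level was 62.8 to 78.5 CPM on day 1 (median 71.3), 18.5 to 27.0 CPM on day 2 (median 23.9), 4.22 to 8.67 CPM on day 3 (median 5.78) and 2.62 to 5.36 CPM on day 4 (median 3.71). The ranges of days 1, 2 and 3 did not overlap. The fall passed in all 4 combinations from day 1 to day 2 (log2 fold change −1.39 to −1.76) and from day 2 to day 3 (−1.68 to −2.19), and in none from day 3 to day 4. Untreated FL/FL cells passed from day 3 to day 4 with DESeq2 (−0.82, adjusted p = 0.000721). In a fit of only the groups compared, 4-OHT-treated WT/FL cells did not pass from day 1 to day 2 (adjusted p = 0.0111).

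*Cxcr4* and *Ccrl2* rose over the same days. *Cxcr4*, the receptor of CXCL12, ranged from 12.6 to 16.3 CPM on day 1, from 14.3 to 27.2 CPM on day 2, from 60.0 to 85.4 CPM on day 3 and from 54.1 to 70.6 CPM on day 4. From day 2 to day 3 its log2 fold change was 1.52 and 1.60 in WT/FL cells without and with 4-OHT and 1.74 and 2.17 in FL/FL cells, and it passed in all 4. From day 1 to day 2 it passed in 3 of 4 combinations, and in 4-OHT-treated FL/FL cells it did not. Of these 3, the call in 4-OHT-treated WT/FL cells (log2 fold change 0.56) was lost without replicate 2 of day 1 (adjusted p = 0.0119) or of day 2 (0.0111), and the call in untreated FL/FL cells (0.57) without replicate 2 of day 1 (0.0122) or of day 2 (0.0201).

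*Ccrl2*, which binds chemerin and presents it to other cells, was low on day 1, with 40 to 87 counts or 0.915 to 1.53 CPM in all 8 libraries. On day 2 it ranged from 5.04 to 7.72 CPM in the 6 libraries of the 3 control groups and reached 16.5 and 19.8 CPM in 4-OHT-treated FL/FL cells. Its log2 fold change from day 1 to day 2 was 2.28 and 2.17 in untreated WT/FL and FL/FL cells, 2.90 in 4-OHT-treated WT/FL cells and 4.08 in 4-OHT-treated FL/FL cells, and it passed in all 4. From day 2 to day 3 it passed in untreated WT/FL (0.71), 4-OHT-treated WT/FL (0.62) and untreated FL/FL cells (1.02), and in 4-OHT-treated FL/FL cells its log2 fold change was 0.34 (adjusted p = 0.119, and 0.00903 in a fit of only the groups compared). The calls in WT/FL cells were lost without day 2 replicate 1, day 2 replicate 2 or day 3 replicate 2, with adjusted p of 0.0189, 0.0175 and 0.0463 in untreated and of 0.0695, 0.0144 and 0.161 in 4-OHT-treated cells.

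*Ccr3* and *Ccr2* changed late. *Ccr3*, a receptor of CCL5, CCL7, CCL11 and CCL24, was at 5.63 to 9.27 CPM on day 3 and at 13.5 to 27.3 CPM on day 4, and its ranges did not overlap. The rise passed in all 4 combinations, with log2 fold changes of 1.21 and 1.70 in WT/FL cells and 1.40 and 1.56 in FL/FL cells without and with 4-OHT. In 4-OHT-treated FL/FL cells it also rose from day 1 to day 2 (log2 fold change 0.48, adjusted p = 0.00529), a call that was lost without replicate 1 of day 1 (adjusted p = 0.0896) or replicate 1 (0.025) or 2 (0.0339) of day 2, with upper-quartile factors (0.0166) and with DESeq2 (0.0103). *Ccr2*, the receptor of CCL2, CCL7 and CCL12 by which monocytes leave the bone marrow, did not pass between days 1 and 2 or days 2 and 3. In fits of only the groups compared it passed from day 1 to day 2 in untreated (log2 fold change 0.35, adjusted p = 0.00745) and 4-OHT-treated FL/FL cells (0.54, 4.12e-05) and from day 2 to day 3 in the latter (0.22, 0.00993). From day 3 to day 4 it fell in 3 combinations, by 2.26 and 1.94 on the log2 scale in WT/FL cells without and with 4-OHT and by 1.92 in untreated FL/FL cells. In a fit of only the groups compared the WT/FL calls were lost (adjusted p = 0.0594 and 0.0868). In 4-OHT-treated FL/FL cells its log2 fold change was −0.78 (95% confidence interval −1.40 to −0.17) and did not pass, with an adjusted p of 0.0817, but passed in a fit of only the groups compared (1.71e-06).

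**Figure D2:**
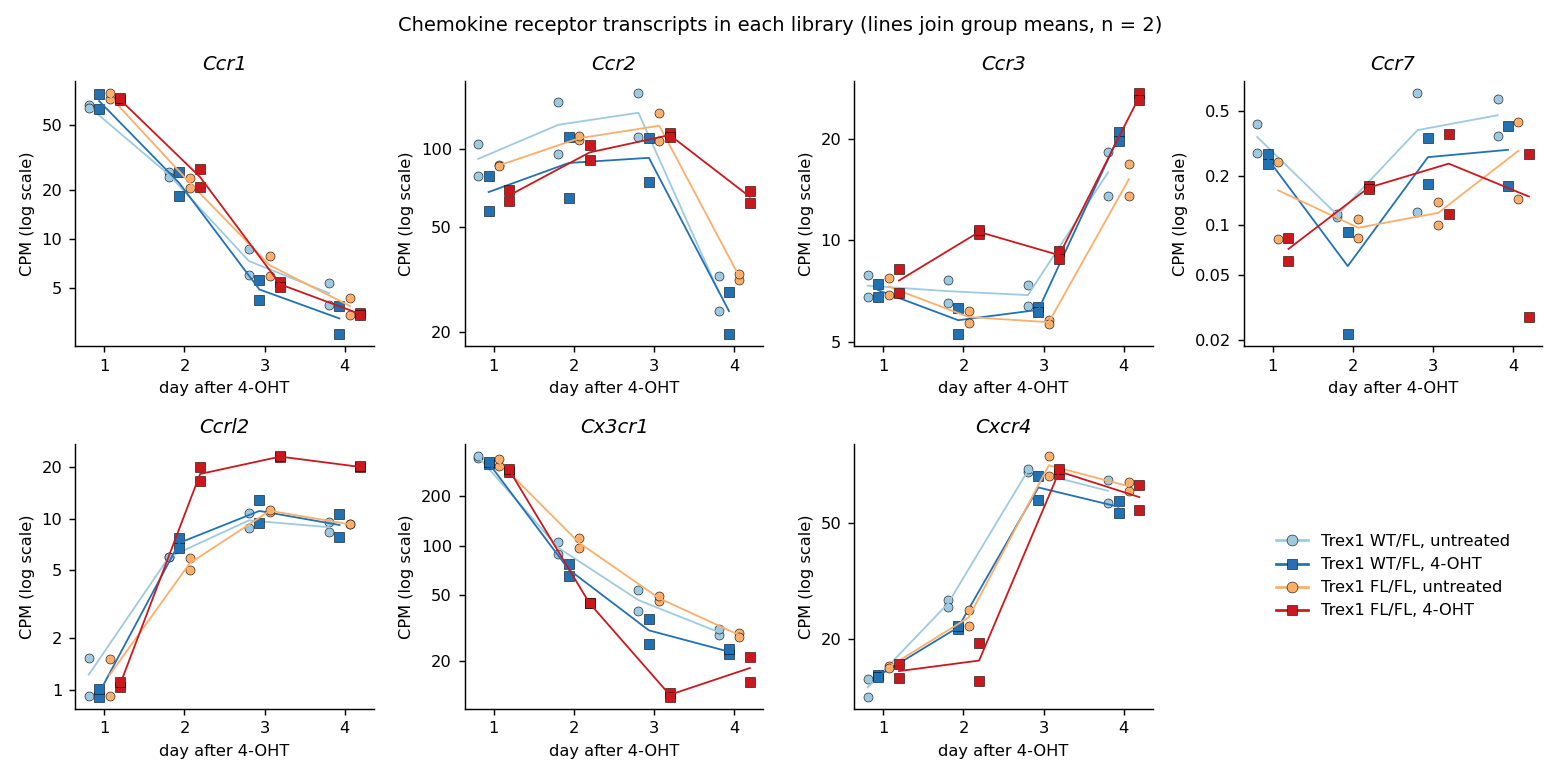
CPM on a log scale against the day after 4-OHT for the 7 tested receptors. Each point is a library and lines join the means of the 2 libraries of a group; *Ackr3* is not drawn, and on day 4 the 4-OHT-treated FL/FL libraries of *Ccr2* (62.1 and 68.8 CPM) lie above all 6 control libraries, which reach 33.2 CPM.

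Over the 16 group means of log2 CPM, *Cx3cr1* was correlated with *Ccr1* (Pearson's r = 0.944) and inversely with *Ccrl2* (r = −0.945), and *Ccr1* inversely with *Cxcr4* (r = −0.941). *Ccr2* and *Ccr3* were inversely correlated (r = −0.730), and *Ccr2* and *Ccrl2* were not (r = −0.00172). These are descriptions over groups that share day, genotype and treatment.

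Whether loss of TREX1 changed the receptors was asked by comparing FL/FL with WT/FL cells after 4-OHT. On day 1 none of the 7 receptors passed, none had an unadjusted p under 0.05 and none passed with DESeq2. The share of all genes that passed with edgeR on this day was 0.0197%. On day 2, 3 of 7 passed (8.17% of all genes), on day 3, 3 of 7 (12.1%) and on day 4, 2 of 7 (21.5%). Of these, 2 were higher in FL/FL cells on each day (5.69%, 6.69% and 9.84% of all genes), and 1, 1 and 0 were lower (2.48%, 5.42% and 11.7%). *Ccrl2* was higher on days 2, 3 and 4, *Ccr3* was higher on days 2 and 3, *Ccr2* was higher on day 4, and *Cx3cr1* was lower on days 2 and 3. None passed both thresholds, beside 0.583%, 0.872% and 2.98% of all genes on days 2, 3 and 4. The median log2 fold change over the 7 receptors was 0.03, 0.14, 0.18 and 0.11 on days 1 to 4, beside −0.01, −0.01, −0.01 and −0.04 over all genes.

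*Ccrl2* differed between the genotypes on 3 of the 4 days. On day 1 it was at 1.04 and 1.11 CPM in 4-OHT-treated FL/FL cells and at 0.915 and 1.01 CPM in 4-OHT-treated WT/FL cells. On day 2 the FL/FL libraries held 16.5 and 19.8 CPM and the WT/FL libraries 6.71 and 7.72 CPM. The genotypes did not overlap from day 2 onwards, and both FL/FL libraries were also above the 4 untreated libraries of the day (5.04 to 5.96 CPM). On day 3 the values were 22.7 and 23.2 CPM against 9.38 and 12.8 CPM, and on day 4 they were 19.8 and 20.1 CPM against 7.78 and 10.6 CPM. *Ccrl2* was 2.52-fold higher on day 2 (log2 fold change 1.33, standard error 0.18, adjusted p = 4e-06), 2.08-fold on day 3 (1.05, 0.17, adjusted p = 6.73e-05) and 2.18-fold on day 4 (1.13, 0.18, adjusted p = 1.36e-05). It passed on these 3 days whichever of the 4 libraries compared was left out.

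For *Ccr3* the fitted difference was largest on day 2, before its rise between days 3 and 4. On day 2 it was at 10.4 and 10.7 CPM in FL/FL cells and at 6.32 and 5.27 CPM in WT/FL cells under 4-OHT. The control libraries of day 2 did not exceed 7.60 CPM, below both FL/FL libraries. The difference was 1.83-fold (log2 fold change 0.87, standard error 0.14, adjusted p = 5.43e-05). On day 3 it was at 9.27 and 8.79 CPM in FL/FL cells against 6.32 and 6.12 CPM in WT/FL cells, 1.45-fold higher (log2 fold change 0.54, standard error 0.14, adjusted p = 0.00715). The call of day 3 was lost whichever of the 4 libraries was left out, with adjusted p of 0.0428 and 0.0542 without WT/FL replicates 1 and 2 and of 0.0589 and 0.0271 without FL/FL replicates 1 and 2. On day 4 the values were 27.3 and 26.0 CPM against 20.9 and 19.6 CPM, which did not overlap, but the log2 fold change of 0.40 (95% confidence interval 0.12 to 0.67) did not pass (adjusted p = 0.0232). In a fit of only these 4 libraries it passed on day 4 (0.43, adjusted p = 0.00224) and not on day 3 (0.54, adjusted p = 0.0181).

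*Ccr3* is a marker of eosinophils, and 7 markers of eosinophils, basophils and mast cells were therefore summed. *Epx*, *Mcpt8* and *Fcer1a* had 0 counts in every library. The sum was 0.0908 and 0.166 CPM in 4-OHT-treated FL/FL cells on day 4, where *Ccr3* was highest, and at most 1.12 CPM in any library.

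*Cx3cr1* was the member that was lower in FL/FL cells. On day 1 its 4-OHT-treated libraries held 280 and 292 CPM in FL/FL cells and 313 and 322 CPM in WT/FL cells, and the log2 fold change of −0.15 did not pass (adjusted p = 1). On day 2 it was at 44.8 and 44.6 CPM in FL/FL cells and at 77.6 and 65.7 CPM in WT/FL cells, and on day 3 at 12.8 and 12.1 CPM against 35.8 and 25.5 CPM. The FL/FL libraries were the lowest of the 8 libraries on each of the 4 days. The level was 1.60-fold lower on day 2 (log2 fold change −0.68, standard error 0.16, adjusted p = 0.0058) and 2.47-fold lower on day 3 (−1.31, 0.17, adjusted p = 2.4e-05). On day 4 it was at 21.3 and 15.0 CPM against 21.9 and 23.6 CPM, and the log2 fold change of −0.32 (95% confidence interval −0.68 to 0.04) did not pass (adjusted p = 0.175). The call of day 3 was kept whichever of the 4 libraries was left out. That of day 2 was lost without WT/FL replicate 1 (adjusted p = 0.083) or 2 (0.0106) and without FL/FL replicate 1 (0.0501) or 2 (0.0509).

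*Ccr2* differed on day 4. Its 4-OHT-treated libraries held 68.8 and 62.1 CPM in FL/FL cells and 28.3 and 19.6 CPM in WT/FL cells, while the 4 untreated libraries of the day held 24.1 to 33.2 CPM. Both FL/FL libraries were above all 6 controls. *Ccr2* was 2.72-fold higher (log2 fold change 1.44, standard error 0.30, adjusted p = 0.00134), and the call was lost without WT/FL replicate 2 (log2 fold change 1.21, adjusted p = 0.0278), without FL/FL replicate 1 (1.37, adjusted p = 0.0135) or in a fit of only these 4 libraries (1.48, adjusted p = 0.02). On days 1, 2 and 3 its log2 fold change was −0.04, 0.14 and 0.29, with adjusted p of 1, 0.849 and 0.561. On day 3, for example, FL/FL cells held 115 and 110 CPM and WT/FL cells 110 and 74.5 CPM.

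Some sequence of the receptors is shared with other genes. Of 6750 words of 31 bases in the annotated transcripts of *Ccr2*, 248 (3.67%) also occur in transcripts of other genes, and the part of shared reads in the *Ccr2* value was not tested. For the other members the share of such words was 0.0356% to 5.42%, highest in *Ccr7*, which overlaps the lncRNA *Gm57398* on the opposite strand. *Cx3cr1* (3.16%) overlaps the lncRNA *Gm33858* on the opposite strand. The sources used here do not state whether the libraries keep the strand, and without strand the reads of such pairs cannot be told apart.

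*Ccr1* and *Cxcr4* did not pass on any day. *Ccr1* had log2 fold changes of 0.03 to 0.13 with adjusted p of 0.794 to 1, and the 95% confidence interval on day 2 was −0.29 to 0.54. For *Cxcr4*, day 2 gave 14.3 and 19.3 CPM in FL/FL cells against 21.6 and 22.2 CPM in WT/FL cells. Both FL/FL libraries were below all 6 controls of the day, which held 21.6 to 27.2 CPM, but the log2 fold change of −0.38 (95% confidence interval −0.66 to −0.11) did not pass (adjusted p = 0.0616). Without FL/FL replicate 2 it was −0.62 and passed (adjusted p = 0.00594).

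**Figure D3:**
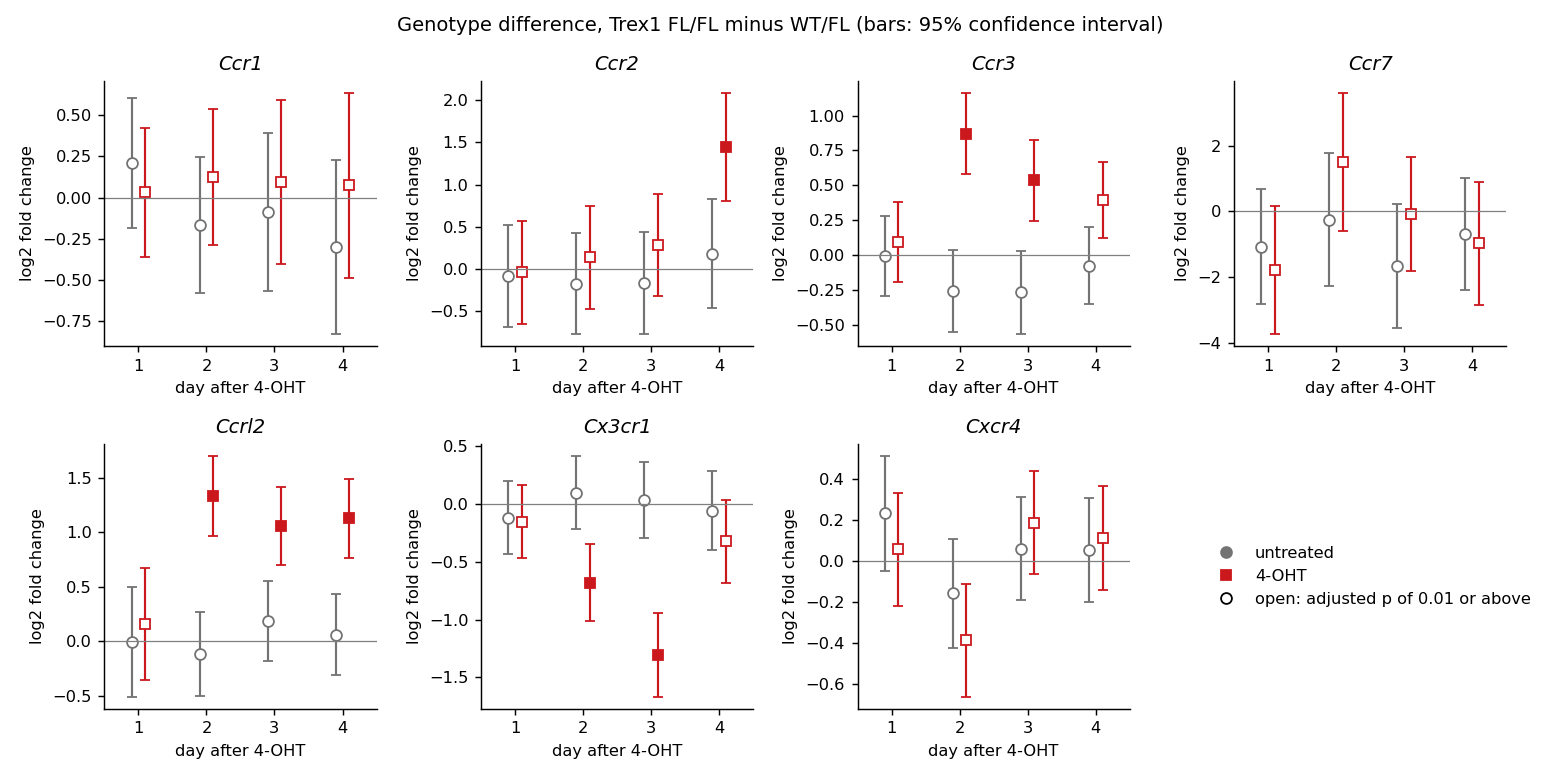
Log2 fold change of FL/FL over WT/FL cells on each day after 4-OHT for the 7 tested receptors, with bars for the 95% confidence interval of edgeR's fit, squares for 4-OHT-treated and circles for untreated cells. Filled symbols passed at an adjusted p under 0.01: *Ccrl2* on days 2 to 4, *Ccr3* and *Cx3cr1* on days 2 and 3 and *Ccr2* on day 4, all under 4-OHT. The vertical scale differs between panels.

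Marker genes of cell types were compared between the genotypes in the same way. Of 7 macrophage markers, 1 passed as higher and 1 as lower in FL/FL than in WT/FL cells under 4-OHT on day 2. On day 3, 2 were higher and 3 lower, and on day 4, 1 was higher and 2 lower. Their medians were 0.016, −0.062 and −0.072 on the log2 scale. Of all genes, 5.69%, 6.69% and 9.84% were higher and 2.48%, 5.42% and 11.7% lower on these days. The summed markers were at 26245 to 28254 against 31671 to 33691 CPM on day 2 and at 38258 to 38735 against 45021 to 47292 CPM on day 3, and most of this sum was *Lyz2*, the lysozyme gene, with 17864 and 19630 against 23236 and 25581 CPM on day 2. *Fcgr1*, an Fc receptor gene, went the other way, at 720 and 775 against 290 and 232 CPM on day 2 (log2 fold change 1.52, adjusted p = 4.75e-09) and with log2 fold changes of 1.28 and 2.27 on days 3 and 4. *Lyz2* was picked with its values in view. The sum of 5 stromal and endothelial markers was higher, at 70.8 to 71.7 against 15.1 to 19.2 CPM on day 2 and at 32.2 to 34.0 against 4.96 to 7.11 CPM on day 4. This sum was nearly all *Kdr*, at 69.1 and 68.5 CPM in FL/FL cells of day 2. *Kdr* and *Cdh5*, both endothelial markers, were the 2 of the 5 that passed both thresholds on day 2, as did 0.583% of all genes. *Cdh5* was at 2.03 and 1.94 against 0.719 and 0.566 CPM (log2 fold change 1.63, adjusted p = 0.00374). *Col1a1* and *Col3a1* did not exceed 1.16 and 0.432 CPM in any library. The part of either list in the receptor differences was not tested.

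In untreated cells the same comparison of genotypes gave no receptor that passed on any of the 4 days with edgeR or with DESeq2, and none of the 28 tests had an unadjusted p under 0.05. The share of all genes that passed was 0% on days 1 to 3 and 0.0655% on day 4. Thus none of the 5 receptors on the chromosome of *Trex1* passed. For *Ccrl2* the log2 fold change between untreated genotypes lay between −0.12 and 0.19, for *Cx3cr1* between −0.12 and 0.10 and for *Ccr3* between −0.27 and −0.01. For *Ccr2* it was 0.18 on day 4, with a 95% confidence interval of −0.47 to 0.82.

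4-OHT-treated cells were next compared with untreated cells of the same genotype and day, which asks whether the difference follows the treatment. This comparison shares the 4-OHT-treated FL/FL libraries with the comparison of genotypes, and so its values are not independent of it. In FL/FL cells no receptor passed on day 1 (none had an unadjusted p under 0.05, and 0.0131% of all genes passed), and 3 of 7 passed on each of days 2, 3 and 4 (11.1%, 15.7% and 21.4% of all genes). They were *Ccrl2*, *Ccr3* and *Cx3cr1* on each of these days. In WT/FL cells none of the 28 tests passed in this fit or with DESeq2 (6 had an unadjusted p under 0.05, and 0.00655%, 0.0918%, 0.341% and 0.216% of all genes passed on days 1 to 4).

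*Ccrl2* rose in FL/FL cells from 5.04 and 5.93 CPM without to 16.5 and 19.8 CPM with 4-OHT on day 2. On day 3 it rose from 11.0 and 11.2 to 22.7 and 23.2 CPM, and on day 4 from 9.28 and 9.24 to 19.8 and 20.1 CPM. The groups did not overlap on any of these days. Its log2 fold changes were 1.73, 1.05 and 1.11 (adjusted p = 6.11e-08, 4.96e-05 and 1.65e-05), and that of day 2 passed both thresholds, as did 1.03% of all genes. In WT/FL cells they were 0.28, 0.18 and 0.04.

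*Ccr3* rose with 4-OHT in FL/FL cells from 6.17 and 5.68 to 10.4 and 10.7 CPM on day 2 and from 13.6 and 16.8 to 27.3 and 26.0 CPM on day 4. Its log2 fold changes were 0.84, 0.66 and 0.82 on days 2 to 4 (adjusted p = 7.12e-05, 0.00107 and 2.19e-05). The call of day 3 was lost without untreated replicate 1 (adjusted p = 0.0101) or 2 (0.0174) or 4-OHT replicate 1 (0.0131). In WT/FL cells the log2 fold changes were −0.29, −0.15 and 0.35, and the last of these had an adjusted p of 0.496.

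*Cx3cr1* fell with 4-OHT in FL/FL cells from 97.0 and 111 to 44.8 and 44.6 CPM on day 2 and from 46.3 and 49.5 to 12.8 and 12.1 CPM on day 3. The day 3 change was 3.86-fold (log2 fold change −1.95, standard error 0.17, adjusted p = 1.13e-07) and passed both thresholds, as did 1.67% of all genes, and that of day 2 was −1.22 (adjusted p = 1.35e-05). On day 4 no receptor passed both thresholds, beside 3.43% of all genes. The log2 fold change of *Cx3cr1* on that day was −0.66 (adjusted p = 0.00608), and this result was lost without untreated replicate 1 (−0.62, adjusted p = 0.0482) or 2 (−0.70, 0.0201) or 4-OHT replicate 2 (−0.43, 0.111). In WT/FL cells the log2 fold changes of *Cx3cr1* were −0.44, −0.61 and −0.39 on days 2, 3 and 4, with unadjusted p of 0.0101, 0.00133 and 0.0277 and adjusted p of 1, 0.134 and 0.582, and did not pass. The WT/FL libraries with 4-OHT were still below both untreated WT/FL libraries on each of these days. They held 77.6 and 65.7 against 105 and 89.1 CPM on day 2 and 35.8 and 25.5 against 53.6 and 39.9 CPM on day 3. On day 4 the values were 21.9 and 23.6 against 28.8 and 31.0 CPM.

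*Cxcr4* and *Ccr2* did not pass in FL/FL cells. For *Cxcr4* on day 2 the log2 fold change was −0.50 and the adjusted p 0.0102, and it passed with upper-quartile factors (adjusted p = 0.00716), with a higher filter on counts (0.00912), with DESeq2 (0.00159) and without 4-OHT replicate 2 (−0.73, 0.000958). For *Ccr2* on day 4 it was 1.02 (95% confidence interval 0.38 to 1.65) with an adjusted p of 0.0156, and it passed with DESeq2 (0.00175) and in a fit of only these 4 libraries (1.18e-10). Untreated FL/FL libraries of *Ccr2* held 31.6 and 33.2 CPM on this day against 68.8 and 62.1 CPM with 4-OHT, and did not overlap. In WT/FL cells *Ccr2* was at 163 and 111 CPM without and at 110 and 74.5 CPM with 4-OHT on day 3. These values did not overlap, but the log2 fold change of −0.57 did not pass (adjusted p = 0.632). In a fit with a block for the runs of library numbers, chosen after seeing the data, this change passed (adjusted p = 0.000147).

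**Figure D4:**
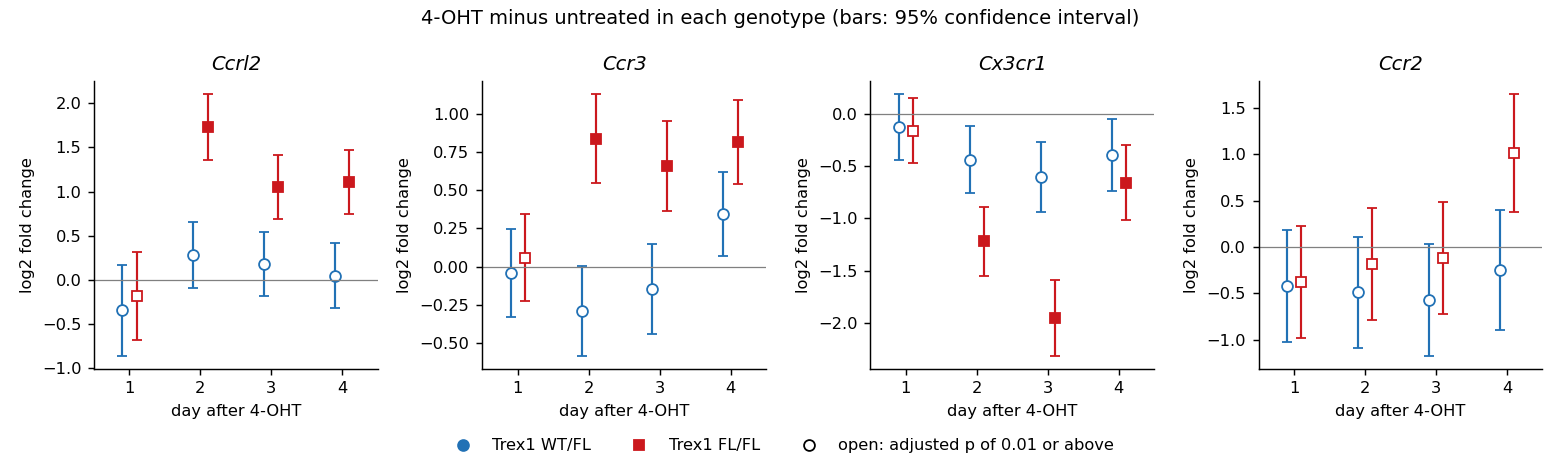
Log2 fold change of 4-OHT-treated over untreated cells on each day, in WT/FL (circles) and FL/FL cells (squares), for 4 receptors, with bars for the 95% confidence interval. Filled symbols passed at an adjusted p under 0.01; *Ccrl2*, *Ccr3* and *Cx3cr1* pass in FL/FL cells on days 2 to 4 and no receptor passes in WT/FL cells in this fit.

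Whether the 4-OHT effect differed between genotypes was tested as an interaction. On day 1 no receptor passed (0.00655% of all genes, and no receptor had an unadjusted p under 0.05), on day 2 *Ccr3* and *Ccrl2* passed (4.04% of all genes), on day 3 *Cx3cr1* (4.65%) and on day 4 *Ccrl2* (10.4%). The differences of log2 fold changes were 1.13 for *Ccr3* (standard error 0.20, adjusted p = 0.000359) and 1.45 for *Ccrl2* (0.26, adjusted p = 0.000361) on day 2, −1.34 for *Cx3cr1* on day 3 (0.23, adjusted p = 0.00107) and 1.07 for *Ccrl2* on day 4 (0.25, adjusted p = 0.00315). For *Ccr2* on day 4 the difference was 1.27 (95% confidence interval 0.36 to 2.17) and did not pass (adjusted p = 0.055). Those of *Ccr3* on day 3 (0.80, adjusted p = 0.0107), *Ccrl2* on day 3 (0.87, 0.0265) and *Cx3cr1* on day 2 (−0.78, 0.0392) did not pass either. *Ccr3* on day 3 passed with RLE factors (0.00911), upper-quartile factors (0.00893) and DESeq2 (0.00598), *Ccrl2* on day 3 passed without 4-OHT-treated WT/FL replicate 2 (1.11, 0.00903), and in a fit of only the groups compared *Cx3cr1* passed on day 2 (0.00986) but not on day 3 (0.0648). The call of *Ccrl2* on day 4 was lost without untreated WT/FL replicate 2 (0.0203), 4-OHT-treated WT/FL replicate 1 (0.035), untreated FL/FL replicate 1 (0.0144) or 2 (0.0131) or 4-OHT-treated FL/FL replicate 1 (0.0115) or 2 (0.0124).

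The differences between 4-OHT-treated genotypes were also compared between days. None of the 21 tests passed in this fit, 9 had an unadjusted p under 0.05, and 3 passed with DESeq2, namely *Ccr3* and *Ccrl2* from day 1 to day 2 and *Cx3cr1* from day 3 to day 4. With edgeR, the share of all genes that passed was 3.02% from day 1 to day 2, 0.905% from day 2 to day 3 and 3.7% from day 3 to day 4. The share with DESeq2 was not counted. For *Ccrl2* the change of the difference from day 1 to day 2 was 1.17 on the log2 scale (adjusted p = 0.0194), and for *Ccr3* it was 0.78 (adjusted p = 0.0164). For *Cx3cr1* the difference was −1.31 on day 3 and −0.32 on day 4, a change of 0.98 (95% confidence interval 0.47 to 1.49, adjusted p = 0.0179), and this passed without WT/FL replicate 2 of day 3 (adjusted p = 0.00326) or FL/FL replicate 2 of day 4 (0.00379). For *Ccr2* the change from day 3 to day 4 was 1.16 (95% confidence interval 0.28 to 2.03, adjusted p = 0.117).

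Ligands of the receptors were read from a list of 18 genes, of which 13 were tested. Under 4-OHT, 8, 7 and 8 of them were higher in FL/FL cells on days 2, 3 and 4 and passed, and 0, 1 and 1 were lower, with medians of 1.47, 0.65 and 1.10 on the log2 scale. Of all genes tested, 5.69%, 6.69% and 9.84% were higher and 2.48%, 5.42% and 11.7% lower on these days, with medians of −0.0097, −0.0073 and −0.037. By the lowest adjusted p among genes that passed both thresholds, those to be named were *Ccl4*, *Ccl5*, *Ccl7*, *Ccl12* and *Cxcl11*. *Ccl5*, a ligand of CCR1 and CCR3, was at 119 and 110 CPM in FL/FL cells and at 14.4 and 21.6 CPM in WT/FL cells on day 4 (log2 fold change 2.67, adjusted p = 5.43e-07). *Ccl12*, a ligand of CCR2, was at 17.4 and 18.9 against 2.28 and 3.44 CPM (2.68, adjusted p = 1.76e-07), and *Ccl7*, a ligand of CCR2 and CCR3, at 36.5 and 46.6 against 9.13 and 11.9 CPM (1.99, adjusted p = 2.69e-05). *Ccl4* differed by 2.01 (adjusted p = 1.62e-07) on this day, and *Cxcl11*, a ligand of ACKR3, was at 4.21 and 2.42 CPM against 0.0675 and 0.216 CPM (adjusted p = 2.8e-06). The ligands that were lower, *Cx3cl1* on day 3 and *Mif* on day 4, were picked with their values in view. *Cx3cl1*, the ligand of CX3CR1, was at 0.994 and 0.940 CPM in FL/FL cells against 2.55 and 1.70 CPM in WT/FL cells on the day on which *Cx3cr1* was also lower (log2 fold change −1.14, adjusted p = 0.00165). *Ccl11*, *Ccl19* and *Ccl21a* had 0 counts in all libraries, and *Cxcl12* and *Rarres2* at most 10 and 9 counts, too few to be tested.

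Of 20 genes of receptor signalling and desensitization, all tested, 0, 3, 2 and 4 were higher and 0, 3, 4 and 7 lower on days 1 to 4, with medians of −0.02 to −0.08 on the log2 scale. Of all genes, 0.00655%, 5.69%, 6.69% and 9.84% were higher and 0.0131%, 2.48%, 5.42% and 11.7% lower on these days, with medians of −0.0073 to −0.037. *Rgs1*, a regulator that ends Gi signalling, passed both thresholds on day 2 (1.57, adjusted p = 2.94e-08). *Rgs2* and *Ptk2b* on day 2, *Ptk2b* on day 3 and *Rgs2*, *Rac2* and *Ptk2b* on day 4 were also higher. *Arrb1*, an arrestin, and *Pik3cg*, a kinase downstream of G proteins, were lower on days 2, 3 and 4, beside *Grk6* on day 2 and *Grk3* and *Pik3r6* on day 3. Apart from *Rgs1*, the genes of this list were picked with their values in view. Of the 7 lower on day 4 only *Arrb1* and *Pik3cg* are named, and not all that were higher on days 3 and 4.

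The genes whose pattern over the 16 group means was most like that of a receptor were read by Pearson's r over 15256 other genes. They were *Kdelr2*, *Acot7* and *Dna2* for *Ccr1* (r = 0.989 to 0.992), *Asb13*, *Tspan31* and *Slamf7* for *Ccrl2* (0.993 to 0.995), *Gpr84*, *Ccdc115* and *Mir100hg* for *Cx3cr1* (0.984 to 0.986) and *Ndrg3*, *Tbc1d4* and *Chp2* for *Cxcr4* (0.986 to 0.990). For *Ccr3* they were *Ccl3*, *Por* and *Gm8752* (0.936 to 0.960), for *Ccr2* *Dr1*, *Gm30238* and *Stambpl1* (0.902 to 0.907) and for *Ccr7* *Gm15952*, *Gm37121* and *4933433G15Rik* (0.744 to 0.778). The values for *Ccr7* rest on few counts.

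When the 16 groups were ordered by mean CPM, neighbours in the order often lay within the larger of their standard deviations. This was so for 12 of 15 neighbouring pairs in *Ccr1* and *Ccr2*, 13 in *Ccr7*, 11 in *Cxcr4*, 10 in *Ccr3*, 9 in *Ccrl2* and 6 in *Cx3cr1*. The highest *Ccrl2* mean was that of 4-OHT-treated FL/FL cells on day 3 (23.0 CPM, SD 0.357, n = 2), and the lowest *Cx3cr1* mean was that of the same group (12.4 CPM, SD 0.461, n = 2).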

How the data were processed

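The authors checked reads with FastQC (version 11.9 in the submitters' processing notes), quantified them with Salmon (build GRCm39) and used tximport to obtain gene values. The deposited table holds these estimated counts as unnormalized whole numbers. Each column was assigned to its group by the sample labels. Symbols and coordinates came from GENCODE vM39, which matched 51048 of 54281 identifiers. Unmatched ones held 0.32% of all counts. The test was that of edgeR 4.0.16 under R 4.3.3 (quasi-likelihood, TMM factors, filter with a minimum count of 10, a mean for each of 16 groups, 16 residual degrees of freedom). The common biological coefficient of variation was 0.0912. An exact permutation test of 2 libraries against 2 cannot give a two-sided p below 0.333, so no such test was used. For the same reason, a lack of overlap between 2 libraries and 2 others is a description and not a test. The share of all genes without overlap was not counted. Libraries of a group differed by more than counting noise (chi-square per degree of freedom 9.02 to 47.4). The test was checked on simulated data.

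The receptors, gene lists and rules were chosen with earlier results of these data known. Named genes were the 8 receptors, up to 5 genes of each list that passed both thresholds in the 4-OHT genotype difference, by lowest adjusted p, the 3 genes most like each tested receptor, and *Trex1*. As alternatives the fit was repeated with DESeq2 1.42.0, RLE or upper-quartile factors, other thresholds and filters, only the groups compared, and without each library in turn. A fit with a replicate block was added after seeing the data. Shared sequence was counted in words of 31 bases of annotated transcripts. A list of further chemokine receptors is not reported here.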

Additional observations from a re-analysis of the deposited data

Results flagged for a closer look

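4 results were taken up because the 4-OHT effect differed between FL/FL and WT/FL cells in the test of the interaction itself. They were *Ccr3* on day 2 (difference of log2 fold changes 1.13, from 0.84 in FL/FL and −0.29 in WT/FL cells), *Ccrl2* on day 2 (1.45, from 1.73 and 0.28), *Cx3cr1* on day 3 (−1.34, from −1.95 and −0.61) and *Ccrl2* on day 4 (1.07, from 1.11 and 0.04). Without each of the 8 libraries of the day in turn, *Ccr3* on day 2 lay between 1.00 and 1.26 and *Ccrl2* on day 2 between 1.31 and 1.58, and both passed each time. *Cx3cr1* on day 3 lay between −1.57 and −1.07 and also passed each time, but not in a fit of only the 4 groups compared (−1.33, adjusted p = 0.0648). *Ccrl2* on day 4 lay between 0.86 and 1.30 and lost its call in 6 of 8 cases, namely without replicate 2 of untreated WT/FL cells (adjusted p = 0.0203), replicate 1 of 4-OHT-treated WT/FL cells (0.035) or either library of untreated (0.0144 and 0.0131) or 4-OHT-treated FL/FL cells (0.0115 and 0.0124). Within each genotype the untreated and 4-OHT-treated libraries also entered the comparisons of the report, so these values are not a separate line of evidence.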

How the results depend on the processing

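The number of receptor and day pairs that passed was 8 for the genotype difference under 4-OHT, 0 for that without 4-OHT, 9 and 0 for the 4-OHT effect in FL/FL and WT/FL cells, 4 for the interaction, 0 for changes of the genotype difference between days and 40 for changes between days within a group. Leaving out each of the 32 libraries gave 7 to 8, 0 to 0, 8 to 10, 0 to 0, 3 to 5, 0 to 1 and 38 to 40. With a log2 fold change above 1.5 required, 0 of 8, 2 of 9, 0 of 4 and 25 of 40 remained. At an adjusted p under 0.05 the interaction gave 7 and the changes of the genotype difference between days 3. Without a filter on low counts, fold changes moved little but 8 pairs passed for the 4-OHT effect in WT/FL cells, 9 for the interaction and 7 for changes of the genotype difference, and the cause was not tested. The share of all genes that passed without this filter was not counted. Changes of the genotype difference numbered 2 in fits of only the groups compared and 3 with DESeq2. All other counts of these alternatives stayed within 1.5 times the reported one.

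Of the 8 genotype differences that passed under 4-OHT, 68 of 80 recomputed values passed and 12 did not, and none changed sign. Signs changed only in differences that had not passed, when 1 library was left out: *Ccr1* on day 1 (−0.11 to 0.19), day 2 (−0.094 to 0.38), day 3 (−0.090 to 0.32) and day 4 (−0.17 to 0.41), *Ccr2* on day 1 (−0.25 to 0.20) and day 2 (−0.20 to 0.57), *Ccr3* on day 1 (−0.026 to 0.20), *Ccr7* on day 3 (−1.15 to 0.46) and *Cxcr4* on day 1 (−0.029 to 0.13) and day 4 (−0.039 to 0.24). Where a group was left with 1 library, its spread was taken from the other groups. Of the 40 changes between days, 7 were lost without some library of their groups. With 2 libraries per group, the widths of the confidence intervals set what was detectable.

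The labels give no replicate number, but the library numbers in the titles form 2 runs in each genotype, each with 1 library of every treatment and day. What a run stands for is not stated. Differences between runs correlated across genes by −0.00775 to 0.144 between groups of a genotype (above 0.1 in 10 of 56 pairs of groups). The median was 0.071 in WT/FL and 0.063 in FL/FL cells. A correlation over all genes cannot decide whether the runs pair the libraries for a given gene, and the reported fit holds no block. A replicate block for the runs within each genotype, chosen after seeing the data, gave 10, 0, 11, 2, 8, 3 and 47 pairs in the order above, with no call lost. The share of all genes that passed with this block was not counted, so the gain is not read as a result about the receptors. Of the 20 calls gained, 12 were of *Ccr2*, among them the genotype difference under 4-OHT on day 3 (0.32, adjusted p = 0.00513), the 4-OHT effect in WT/FL cells on days 2 (−0.50, 0.0024) and 3 (−0.57, 0.000147) and the interaction on days 3 (0.46, 0.00786) and 4 (1.27, 4.72e-08). The others included *Cxcr4* on day 2 (−0.39, 0.00953).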

Other observations

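In WT/FL cells the order of the 2 libraries of a group was the same throughout for several receptors. *Ccr1* and *Ccr2* were higher in the library listed first in 8 of 8 WT/FL groups, by 1.04 to 1.49 times and by 1.32 to 1.71 times. *Ccrl2* was lower in the library listed first in 8 of 8 WT/FL groups, at 0.605 to 0.998 times the other. In FL/FL cells the first was higher in 4, 6 and 1 of 8 groups for *Ccr1*, *Ccr2* and *Ccrl2*. The library listed first also belongs to the first run of library numbers in each genotype. Within a run and day, *Ccr2* was lower with than without 4-OHT in 8 of 8 pairs of WT/FL libraries, at 0.67 to 0.865 times the untreated level, and in 5 of 8 pairs of FL/FL libraries. *Cx3cr1* was lower with 4-OHT in 8 of 8 pairs of WT/FL libraries, at 0.639 to 0.917 times the untreated level. In FL/FL cells this was also so in 8 of 8 pairs, at 0.245 to 0.92 times. The order of listing names no animal or batch, and what it stands for was not tested. For *Ccr3*, *Ccr7*, *Cx3cr1* and *Cxcr4* the library listed first was higher in 7, 4, 4 and 2 of 8 WT/FL groups. The receptors with 8 of 8 were picked with their values in view. The share of all genes with such an order was not counted, so these orders are not read as a trait of the receptors.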
